A study of Mus musculus with 3 samples.

Results

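Primary mouse embryonic fibroblasts (MEF) labelled p53-null were compared with MEF described in the series design as p53 wild type. Each group was 1 array, so the comparison used 2 of the 3 samples of the series; the remaining array, from embryonic stem (ES) cells, served only to choose which probe stands for a gene. Cells of both groups carried a Nanog-GFP reporter, and neither a treatment nor a time point is named for them. The members passed a filter on signal: of 27546 gene labels on the array, 17401 were well above background on at least 1 fibroblast array, and 14297 of these were matched to a RefSeq gene. The members and the gene lists were chosen with earlier results of these data known. The series asks what p53 does when fibroblasts are turned into induced pluripotent stem cells, and this comparison describes the cells before that step. The age of the embryos, the passage, the number of embryos pooled and the kind of p53 deletion are not given in the sources used here.

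The protein p53 is a transcription factor that binds paired short, nearly palindromic sequences in DNA and switches on genes that halt the cell cycle, kill damaged cells, repair DNA and tune metabolism. Its target Cdkn1a encodes p21, an inhibitor of cyclin-dependent kinases. With p21 present, the retinoblastoma family proteins and the DREAM complex keep genes of DNA replication and mitosis silent, through E2f sites and through a promoter element called CHR. Growth on plastic in atmospheric oxygen is a known stress that activates p53 in cultured fibroblasts.

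Signals are given in scaled units, which are the processed Cy3 signal divided by the array's own 75th percentile and multiplied by 1000, so that the ratio of a gene's signals on both arrays is its fold. Where a pair of signals is given, that of p53-null MEF comes first, and genes not well above background on either array are called dim. The percentile was 1040 scanner units on the p53-null MEF array and 829 on the MEF array, with 26198 and 26462 of 43379 spots well above background and 0 saturated spots on each. The arrays lay on different slides, which were scanned separately, and the median local background was 44 scanner units for p53-null MEF and 27 for MEF. Slide, scan, embryo and genotype therefore cannot be told apart, and with 1 array a side there is no replicate and no test. The scanner's error model gave a median SD of 0.20 on the log2 scale for a difference between signals measured on both arrays, with a highest value of 0.46. Probes printed at 10 spots had a median spot-to-spot CV of 3.64% and 4.14%, and the probes of 1 gene had a median SD of 0.44 (log2) between them. These errors are technical and leave out the spread between cultures.

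Among the genes matched to RefSeq, a 2-fold or larger excess in p53-null MEF was seen for 15.3% and a 2-fold or larger deficit for 17.9%, and these shares are the background against which each gene list below should be read. At 5-fold the counts were 322 genes higher (2.25%) and 495 lower (3.46%). Over all 17401 labels the shares were 3.34% higher and 3.05% lower, so 52.3% of the 5-fold differences were on the higher side. That share was 72.0% with no scaling and 99.5% with spike-in scaling. With another background correction (normexp) it was 44.9% or 45.1%, and with the trend with probe base composition removed 46.7%. Which side held more genes thus depended on the processing. Where a gene was well above background on 1 array only, its fold is a bound, written "at least". Directions are relative to the bulk of the genes on each array: 7 spike-in RNA probes were lower on the p53-null MEF array by a median of -1.94 (log2, unscaled), and scaling on them would raise a difference measured on both arrays by 2.26, and no scaling would raise it by 0.33, while bounds would move by other amounts.

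The promoter stretches below belong to genes whose signals differed most among those holding the letters in question, so they were picked on that difference. Whether the letters take part in the differences was not tested. All stretches run from 150 bases before to 30 after a RefSeq transcript start (GRCm38.p6, the first start listed for each gene). The first 4 are cell cycle genes that were higher in p53-null MEF. Capitals mark TTTGAA, the core letters of the CHR element, and CCAAT, the letters bound by NF-Y, on either strand.

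Kifc1: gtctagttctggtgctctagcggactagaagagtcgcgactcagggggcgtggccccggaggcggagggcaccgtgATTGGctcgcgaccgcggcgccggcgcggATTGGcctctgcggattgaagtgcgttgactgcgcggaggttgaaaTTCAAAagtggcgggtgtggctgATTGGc
Ttk: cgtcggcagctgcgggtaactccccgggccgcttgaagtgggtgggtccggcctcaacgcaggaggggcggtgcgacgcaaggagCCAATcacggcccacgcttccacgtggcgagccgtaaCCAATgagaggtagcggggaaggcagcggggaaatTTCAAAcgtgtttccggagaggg
Cenpf: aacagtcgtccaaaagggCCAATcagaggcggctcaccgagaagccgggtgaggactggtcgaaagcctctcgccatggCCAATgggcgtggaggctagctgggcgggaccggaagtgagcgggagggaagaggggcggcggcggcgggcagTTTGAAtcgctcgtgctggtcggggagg
Depdc1a: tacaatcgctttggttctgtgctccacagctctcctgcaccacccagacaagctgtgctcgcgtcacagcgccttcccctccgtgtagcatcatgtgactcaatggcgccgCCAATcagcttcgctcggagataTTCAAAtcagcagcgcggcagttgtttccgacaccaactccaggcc

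Kifc1 lies at chr17:33890604-33890783 (minus strand), Ttk at chr9:83834539-83834718 (plus), Cenpf at chr1:189688057-189688236 (minus) and Depdc1a at chr3:159495283-159495462 (plus). The TTTGAA letters, read on either strand, covered bases 2 to 7 after the start in Kifc1, 8 to 13 in Ttk and 3 to 8 in Cenpf. In Depdc1a they lay from -16 to -11, with CCAAT from -39 to -35. Such a pair within this stretch was found in 40 of 158 cell cycle genes that have a promoter sequence. The next 3 stretches belong to known p53 target genes that were lower in p53-null MEF. Capitals mark a match to the p53 response element, which is 2 repeats of 10 bases each, with the C and the G of each core intact, at most 2 mismatches elsewhere and a gap of at most 1 base.

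Cdkn1a: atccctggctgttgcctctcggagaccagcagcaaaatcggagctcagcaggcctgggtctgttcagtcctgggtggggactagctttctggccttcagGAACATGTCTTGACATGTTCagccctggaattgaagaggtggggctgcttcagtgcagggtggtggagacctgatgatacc
Cd80: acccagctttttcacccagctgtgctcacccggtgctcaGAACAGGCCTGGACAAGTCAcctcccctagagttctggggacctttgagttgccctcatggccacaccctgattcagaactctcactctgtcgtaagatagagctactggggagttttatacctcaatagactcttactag
Zfp365: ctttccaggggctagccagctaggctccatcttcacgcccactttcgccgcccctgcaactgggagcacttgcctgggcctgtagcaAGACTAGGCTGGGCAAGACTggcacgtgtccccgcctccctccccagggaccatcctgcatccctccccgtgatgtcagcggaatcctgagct

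Cdkn1a lies at chr17:29090829-29091008 (plus strand), Cd80 at chr16:38458783-38458962 (plus) and Zfp365 at chr10:67912633-67912812 (minus). The Cdkn1a match had 1 mismatch and lay from -51 to -32 of the listed start. Cd80 and Zfp365 had 2 mismatches each, at -111 to -92 and -63 to -44. Ccng1, farther out at -195 to -176, had 1.

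Over whole windows of 300 bases (250 before and 50 after the start), 11322 of the 14297 genes had a sequence. TTTGAA was in 12.2% of all windows and in 21.8% of those of the genes at least 5-fold higher, against 12.1% of the genes at least 5-fold lower. It was in 24 of 31 windows of spindle and kinesin genes (77.4%), 15 of 35 of kinetochore genes (42.9%) and 6 of 12 of genes of G2 and mitotic entry. DNA synthesis genes had it in 3 of 30. CCAAT was in 38.6% of all windows and in 11 of 12 of G2 and mitotic entry. The E2f-like letters TTTGGCGC, TTTCGCGC or TTTCCCGC were in 3.28% of all windows and in 11 of 22 of G1/S genes. A p53 match was in 0.751% of all windows, in 7 of 123 of p53 target genes (5.69%) and in 4 of 19 of those for arrest and feedback. The shares were alike on both sides, at 4 of 252 windows of the genes at least 5-fold higher (1.59%) and 6 of 373 of those at least 5-fold lower (1.61%). The p53 targets with a match included Trp73 (-0.86 on the log2 scale), Bax (-0.94) and Ckap2 (0.24), so a match went with differences of several sizes. These are matches of letters on both strands and not measured binding, and a TTTGAA match and a CCAAT match can overlap by a base.

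Trp53, the gene for p53, checked the labels. At its brighter probe, printed at 10 spots (mm8 chr11:69405827-69405886), the signal was 54.00 scaled units in p53-null MEF and 1574 in MEF, which is 29.1-fold lower, or -4.87 ± 0.22 on the log2 scale (SD, error model). A second probe (mm8 chr11:69396652-69396710) gave 250.5 and 691, or 2.76-fold lower. Both probes were lower in p53-null MEF, the direction the label names, and both were still well above background there. The 20 nearest measured genes on the chromosome, 10 on each side, had a median log2 difference of 0.12, 5 of them 2-fold or more higher and 3 lower. Wrap53, which overlaps the Trp53 start on the opposite strand, was at 5752 and 2807 scaled units (1.04, log2), and Sat2 on the other side at 999 and 365 (1.45). Efnb3 stood at 118 and 53.2 (1.15) and Tmem88 at 936 and 4004 (-2.10). The range of 2.22 to -2.10 among these neighbours shows no common direction around the locus.

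**Figure D1:**
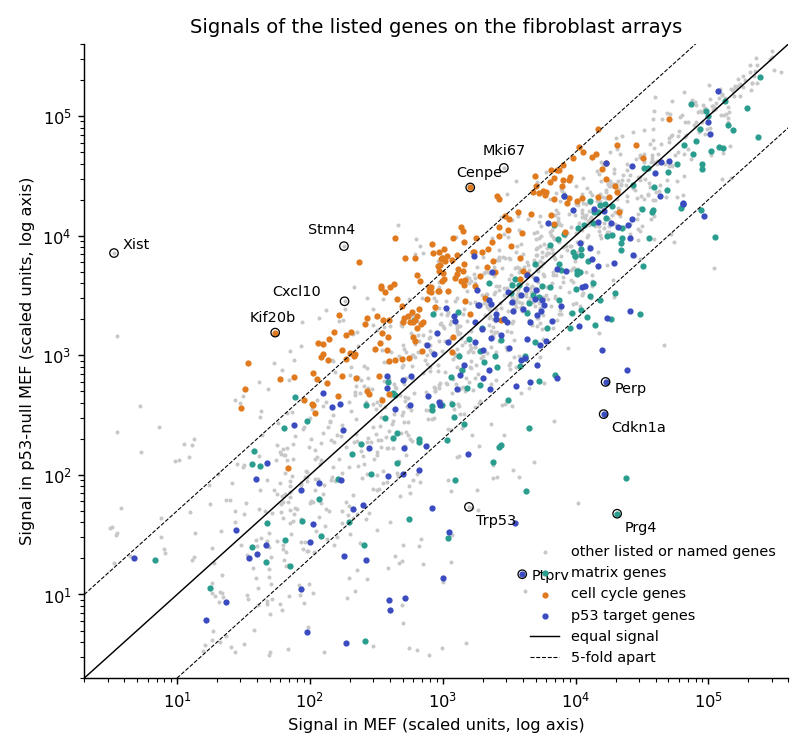
Signals of the genes on the lists and of the genes named by rule, 1 point per gene, on the MEF array (x axis) and the p53-null MEF array (y axis), in scaled units on log axes; the solid line marks equal signal and the dashed lines a 5-fold difference. Cell cycle genes lie mostly above the line and p53 targets and matrix genes mostly below it, with Cdkn1a at 322 against 16259; scaling on spike-ins would move the points up by 2.26 on the log2 scale relative to the line of equal signal.

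Of 151 known p53 target genes on the array, 147 were measured: 64 lay at least 2-fold lower and 12 higher, while at 5-fold the counts were 27 lower and 0 higher. The background shares were 17.9% lower and 15.3% higher at 2-fold, and 3.46% lower and 2.25% higher at 5-fold. Their median log2 difference was -0.80 beside -0.05 for all matched genes; scaled on spike-ins it was 1.41, below the 2.26 by which the median of all labels moved. The targets did not move as 1 block, and the groups by role below differ in their counts.

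Genes of cell cycle arrest and of feedback on p53 had 11 of 22 measured members at least 2-fold lower and 0 higher (median -1.08). The signal of Cdkn1a was 322 scaled units in p53-null MEF and 16259 in MEF, 50.5-fold lower. Ptprv, a receptor-type tyrosine phosphatase gene, did not clear background in p53-null MEF and had 3965 in MEF, at least 257-fold lower. Trp53inp1, a cofactor in the p53 response, had 647 and 7237 (11.2-fold), and Ccng1, encoding cyclin G1, 2046 and 17338 (8.48-fold). Btg2, an antiproliferative gene, stood 7.59-fold lower, Rprm, encoding the G2 arrest protein reprimo, 4.32-fold and Mxd4, a Myc antagonist, 4.23-fold. Members of the feedback loop differed less. Mdm2, the ubiquitin ligase that degrades p53, was 2.33-fold lower with 2350.4 against 5472, and 10.8-fold lower at a dimmer probe. The phosphatase gene Ppm1d, which also dampens p53, had 353 and 439 (-0.31, log2), and Plk3 had 1934 and 1230.4 (0.65). Zmat3, encoding an RNA-binding protein, was 6.098-fold lower at its bright probe, although its probes ranged from -2.61 to 0.23.

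Cell death targets had 13 of 25 at least 2-fold lower and 1 higher (median -1.33). Eda2r, a receptor gene of the TNF receptor family, had 1005 scaled units in MEF and was at least 65.2-fold lower. Dapk1, a death-associated kinase gene, was at 33.1 and 1122 (33.9-fold lower, -5.08 ± 0.26 on the log2 scale), and the membrane protein gene Perp at 598 and 16805 (28.1-fold). These 3 stood far below the rest of the group. The death receptor gene Fas was 6.17-fold lower (probes from -2.63 to -0.60), Phlda3, a repressor of Akt, 6.37-fold, and Tnfrsf10b, the mouse TRAIL receptor, 2.51-fold. Of the Bcl2 family members that p53 switches on, Bbc3 (Puma) had 5536 against 14755, 2.67-fold lower, and Bax 13766 against 26363, 1.92-fold lower. Pmaip1 (Noxa) lay on the other side with 3533 against 1812 (0.96, log2), as did Bok with 12820.0 against 6217, 2.06-fold higher. The antiapoptotic gene Bcl2l1 was itself 2.94-fold lower.

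The 14 targets in DNA repair and nucleotide supply went both ways, with 3 lower and 5 higher by 2-fold or more (median 0.14). Mgmt, which removes alkyl groups from guanine, was at 19.4 and 265, 13.7-fold lower (± 0.32, log2), and the excision nuclease gene Ercc5 was 2.47-fold and Gadd45a 2.38-fold lower. Higher were Ascc3, a helicase gene of alkylation repair, at 6701 and 1722 (3.89-fold), Rad51c of recombination (2.65-fold), Pcna, the sliding clamp (2.38-fold), Rrm2b, a ribonucleotide reductase subunit (2.33-fold), and Rev3l, a translesion polymerase (2.13-fold; probes from 0.22 to 1.09). Rps27l, a p53-induced ribosomal protein gene, had 88906 and 98809 (-0.15). Several of the higher genes also serve DNA replication, and Pcna is on that list too.

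Metabolic and redox targets had 18 of 31 at least 2-fold lower and 5 higher (median -1.41). Dglucy, the D-glutamate cyclase gene, had 39.3 scaled units in p53-null MEF and 3468 in MEF (88.2-fold lower, -6.46 ± 0.24). Ephx1, microsomal epoxide hydrolase, had 757 and 24216 (31.99-fold), and Pltp, the phospholipid transfer protein gene, 53.3 and 836 (15.7-fold). The carboxylesterase gene Ces2e was at least 12.1-fold lower, Coq8a, needed for coenzyme Q synthesis, 8.67-fold, Cpt1c 6.42-fold and Aldh4a1, of proline breakdown, 4.55-fold. The stress sensor gene Sesn2 was 2.65-fold and the thiamine carrier gene Slc19a2 2.98-fold lower. On the higher side were Prodh, proline dehydrogenase, at 479 and 126 (3.79-fold), the glutaminase gene Gls2 at 259 and 75.9 (3.41-fold), Tigar, which lowers glycolytic flux, at 370.1 and 146 (2.54-fold), and Pank1 and Hspa4l at 2.299-fold (another probe at -0.70, log2) and 2.33-fold. The 2 proline catabolism genes Aldh4a1 and Prodh thus lay on opposite sides.

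Membrane, vesicle and autophagy targets had 4 of 20 measured members at least 2-fold lower, near the background of 17.9%, and 0 higher. The 4 were Sytl1 (at least 25.4-fold), the autophagy gene Dram1 (102 against 500.3, 4.89-fold), Rap2b (4.33-fold) and Susd6 (3.45-fold). Secreted and signalling targets had 15 of 35 lower and 1 higher (median -0.76). Tap1, a peptide transporter of antigen presentation, was at least 33.8-fold lower and the costimulatory ligand gene Cd80 at least 26.2-fold. The growth differentiation factor gene Gdf15 had 149 and 1543 (10.3-fold lower) and the heparan sulfatase gene Sulf2 2358 and 25517 (10.8-fold). Igfbp3, which sequesters insulin-like growth factors, was 14.4-fold lower at its bright probe (probes from -3.93 to -1.42), Csf1 3.88-fold and Vdr, the vitamin D receptor gene, 5.97-fold.

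**Figure D2:**
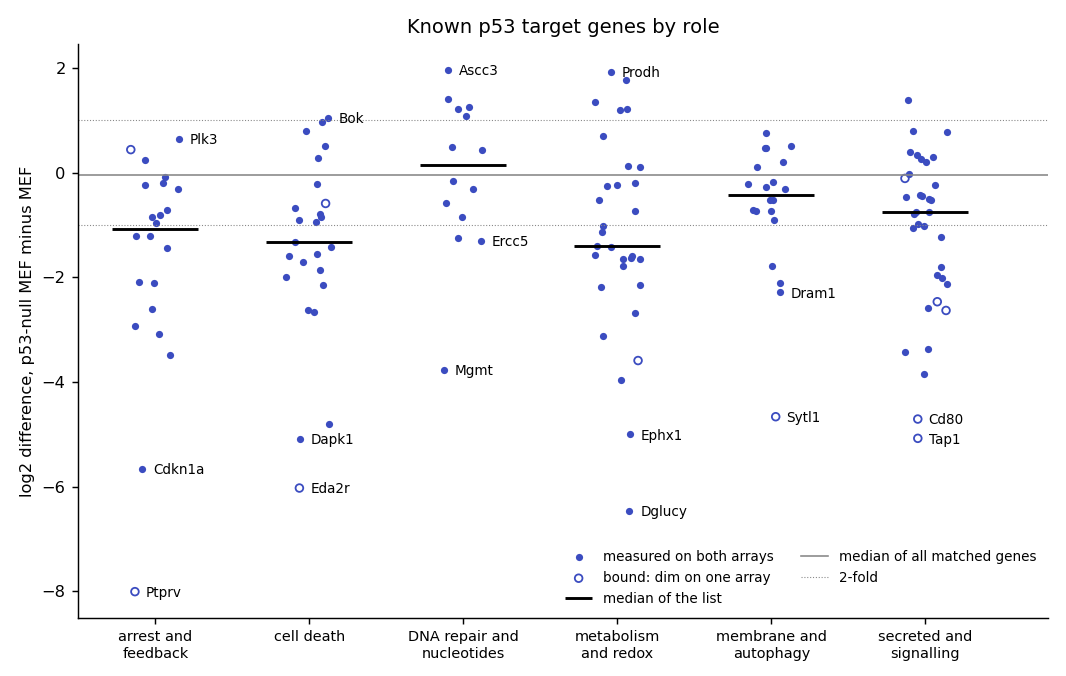
Log2 difference (p53-null MEF minus MEF) of the measured p53 target genes, grouped by role, with 1 point per gene, open points for bounds and black bars for the median of each list. Arrest and cell death targets have medians of -1.08 and -1.33, and repair targets lie around 0.14; scaling on spike-ins would move the filled points up by 2.26 and the open ones by other amounts.

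Cell cycle genes were mostly higher in p53-null MEF, in each list from G1/S to anaphase. Of 192 measured, 162 were higher by 2-fold or more, 63 by 5-fold or more, and 0 lower by 2-fold, beside backgrounds of 15.3%, 2.25% and 17.9%. Their median log2 difference was 1.98 and stayed at or above 1.89 under the other settings. These counts leave out the list of growth arrest and quiescence genes, which holds Ccnd1 (cyclin D1), itself lower by more than 2-fold. Mki67, the widely used proliferation marker, had 36836 scaled units in p53-null MEF and 2882 in MEF (12.8-fold higher). The share of cycling cells and the amount of RNA per cycling cell cannot be told apart in such bulk RNA.

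G1/S genes had 23 of 28 at least 2-fold higher (median 2.11). Ccne2, encoding cyclin E2, had 1468 against 185 (7.92-fold) whereas Ccne1 had 19389.8 against 10265 (1.89-fold; probes from 0.10 to 0.92). The helicase loading genes Mcm2 to Mcm7 ranged from 3.04-fold (Mcm2) to 5.35-fold (Mcm5), with Mcm6 at 49738 against 11277 (4.41-fold), and the origin licensing gene Cdc6 was 6.43-fold higher. Mybl2, a partner of the mitotic gene activators, had 1573 and 203 (7.75-fold), and the repressor genes E2f7 and E2f8 were 4.38-fold and 3.87-fold higher. Cdc7, the kinase gene of origin firing, was 13.2-fold higher at its bright probe but 0.61 (log2) at its lowest.

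DNA synthesis genes had 30 of 35 at least 2-fold higher (median 1.77). Pola1, a subunit gene of DNA polymerase alpha, led at 3765 and 339.9 (11.1-fold), and the primase gene Prim1 had 10991 and 1413 (7.78-fold). Pola2, another subunit gene of that polymerase, was the lowest of the list at 423 and 349 (1.21-fold). The nucleotide supply gene Tk1 was 4.31-fold higher, and the chromatin assembly genes Chaf1a and Chaf1b 4.28-fold and 4.93-fold. The clamp loader genes Rfc1 and Rfc3 to Rfc5 lay between 3.37-fold and 3.802-fold. Rrm1, the large subunit of ribonucleotide reductase, was 2.18-fold and Fen1, the flap nuclease gene, 1.94-fold higher.

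G2 and mitotic entry genes had 19 of 20 at least 2-fold higher (median 2.11). Ccna2 (cyclin A2) had 20339 and 2633 (7.72-fold), Plk1 31533 and 4919 (6.41-fold), Aurka 35071 and 6575 (5.33-fold) and Cdk1 6872 and 1273 (5.399-fold). Mastl, the Greatwall kinase gene, was 8.29-fold higher and Foxm1, a transcription factor of these genes, 2.92-fold. Wee1, the inhibitory kinase gene, was the member short of 2-fold, at 113 and 67.99 (0.74).

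Spindle and cytokinesis genes had 31 of 35 at least 2-fold higher (median 2.39, the highest of all lists here) and 19 at least 5-fold. The kinesin genes Kif20b (1546 and 54.8, 28.2-fold), Kifc5b (6025 and 234, 25.7-fold), Kifc1 (9603 and 439, 21.9-fold) and Cenpe (25278 and 1609, 15.7-fold) stood highest. Kifc1 and Kifc5b are near-identical copies, so their probes may read each other's RNA. The mitotic motor gene Kif11 had 711 and 105 (6.801-fold), the spindle pole gene Aspm 975 and 121 (8.08-fold), and Ect2, which triggers cytokinesis, 9531 and 1196 (7.97-fold). Stmn1 and Kif2c were near 2-fold, at 2.03-fold and 2.28-fold. Plk4, of centriole duplication, was 6.603-fold higher at its bright probe and lower at another (-0.94, log2, a bound).

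Kinetochore and checkpoint genes had 35 of 40 at least 2-fold higher (median 2.22). Ttk, the Mps1 checkpoint kinase gene, had 364 and 30.4 (11.96-fold), Cenpf 6555 and 619 (10.6-fold) and Bub1 3685 and 399 (9.24-fold). The centromeric histone gene Cenpa was 4.17-fold higher and Birc5 (survivin) 5.25-fold. Genes of anaphase, cohesin and condensin had 24 of 34 at least 2-fold higher (median 1.66). Esco2, the cohesin acetyltransferase gene, had 521 and 32.7 (15.96-fold), the condensin genes Ncapg2 and Ncapg were 10.6-fold and 10.2-fold higher, and Cdc20, activator of the anaphase complex, 4.82-fold. The general cohesin subunit gene Rad21 had 29811 and 16948 (1.76-fold).

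DNA damage and repair genes had 35 of 51 at least 2-fold higher and 0 lower (median 1.46). Chek1, the checkpoint kinase gene, had 1186 scaled units and 85.3 (13.9-fold), the helicase gene Blm 2415 and 298 (8.09-fold), Brca2 1572 and 224 (7.01-fold) and Brca1 1731 and 364 (4.76-fold). Fanca, Fancb, Fancd2 and Fanci of crosslink repair lay between 4.35-fold and 8.31-fold higher. The damage kinase gene Atm was 3.36-fold higher. Of 36 chromatin genes, 17 were at least 2-fold higher and 2 lower (median 0.76). Hmgn5 and Hells, a nucleosome-binding and a remodelling factor gene, were 15.1-fold and 13.4-fold higher, Atad2 10.1-fold and the Polycomb methyltransferase gene Ezh2 3.55-fold, while its paralogue Ezh1 was 3.71-fold lower and the remodeller gene Smarca2 2.62-fold.

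Genes tied to growth arrest and quiescence had 9 of 29 at least 2-fold lower and 3 higher (median -0.59). Gas6, a ligand induced on serum withdrawal, had 10312 and 52207 (5.06-fold lower), the transcription factor gene Klf4 8793 and 55148 (6.27-fold) and Ccnd1 (cyclin D1) 9305 and 38747 (4.16-fold). Ccnd1, a cyclin gene, is counted on this list and not among the cell cycle genes above. Txnip, Tob1 and Ccng2 were 4.21-fold, 2.75-fold and 2.17-fold lower. The 3 on the higher side were the pocket protein gene Rbl1 (3.696-fold), Cdkn2d (2.96-fold) and Cdkn1b (4.82-fold at its bright probe, 0.14 on the log2 scale at the lowest). Rbl1 and its relative Rbl2, 2.28-fold lower, thus lay on opposite sides.

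Single genes chosen by size, among those whose probes differed the same way, were taken from the 30 largest measured differences on each side and are shown in the plot of paired signals. Most of the 30 higher genes are cell cycle genes already named or others of that kind: Cip2a, an inhibitor of protein phosphatase 2A (2393 and 131, 18.3-fold), Gas2l3 of the cytokinetic bridge (17.6-fold), Shcbp1 (12.1-fold), Polq, DNA polymerase theta (13.4-fold), Kntc1 of the kinetochore (11.01-fold) and Traip of the replication fork (11.3-fold). Outside that theme, the stathmin gene Stmn4 (mm8 chr14:65315715-65315774) had 8165 and 180.3, 45.3-fold higher and the largest measured difference of a matched gene in this direction. The nuclear import receptor gene Ipo7 was 26.7-fold higher (probes from 2.33 to 4.74). Amhr2, the receptor gene of anti-Mullerian hormone, had 866 and 53.8 (16.1-fold), the chemokine gene Cxcl10 2827 and 182 (15.5-fold), and Batf3, a dendritic cell transcription factor gene, 599 and 41.6 (14.4-fold). The X-linked genes Bex1 and Bex4 were 15.4-fold and 11.2-fold higher. Other names were 4632427E13Rik, Hpdl, B3gnt5 and 2700099C18Rik, from 12.2-fold to 17.4-fold.

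Among genes well above background in p53-null MEF only, Xist led with 7152 scaled units (at least 479-fold). Trim12a followed with 1455 (at least 97.5-fold), then the neural adhesion gene Dscam (377, at least 25.3-fold) and the presynaptic gene Rims2 (251, at least 16.9-fold). Zfp874a, Ccdc18, Nrgn, Amer2, Gria2, Tmem171, Eomes and Zfp947 had bounds from 8.81-fold to 15.3-fold. Nrgn, Rims2 and Gria2 encode synaptic proteins, and Eomes a T-box transcription factor.

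**Figure D3:**
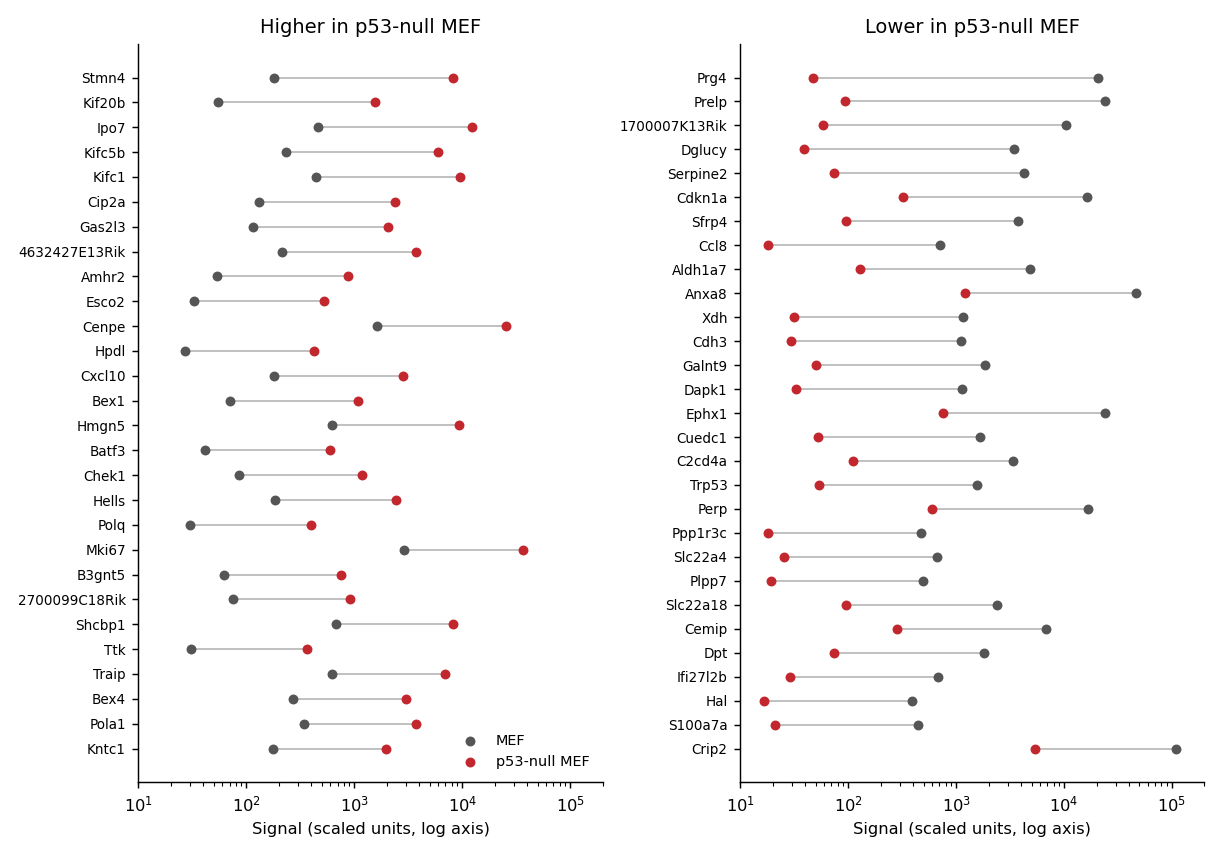
Signals in scaled units (log axis) of the named genes among the 30 largest measured differences in each direction, with grey points for MEF and red points for p53-null MEF. Stmn4 runs from 180.3 in MEF to 8165 in p53-null MEF, and Prg4 from 20533 to 47.3; spike-in scaling would shift each red point to the right of its grey point by a further 2.26 on the log2 scale.

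On the lower side the matrix genes Prg4 and Prelp had the largest measured differences. Prg4, which encodes lubricin of joint surfaces (mm8 chr1:152212251-152212991), had 47.3 scaled units and 20533, 434-fold lower. Prelp, a leucine-rich matrix proteoglycan gene (mm8 chr1:135726768-135726827), had 93.7 and 24071 (257-fold; probes from -8.0 to -3.04). The uncharacterised 1700007K13Rik had 57.9 and 10352 (179-fold). Anxa8, an annexin gene, remained at 1209 against 46107 (38.1-fold), and the LIM protein gene Crip2 at 5335 against 109748 (20.6-fold). Cdh3 (P-cadherin) and Xdh (xanthine dehydrogenase) were 36.9-fold and 37.4-fold lower, the aldehyde dehydrogenase gene Aldh1a7 38.2-fold, the hyaluronan-degrading factor gene Cemip 24.3-fold and Dpt, the dermatopontin gene, 24.2-fold. The glycogen-targeting gene Ppp1r3c, the carnitine transporter family gene Slc22a4 and the imprinted Slc22a18 were 25.9-fold, 25.9-fold and 25.03-fold lower. Galnt9, Cuedc1, C2cd4a, Plpp7, Ifi27l2b, Hal and S100a7a lay between 20.9-fold and 36.5-fold.

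Other genes were bright in MEF and did not clear background in p53-null MEF, where the lowest signal well above background was 15.4 scaled units. Sncg, a synuclein gene with 4169.7 in MEF, was at least 271-fold lower, and Inka2 (at least 65.04-fold), Svop (64.3-fold), Wdr72 (50.97-fold), the protease inhibitor gene Serpina3n (35.9-fold), the acetylcholine receptor gene Chrm1 (32.4-fold) and Sh2d4a (32.2-fold) were likewise bounds.

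Matrix genes were mostly lower: of 165 measured, 81 were lower and 9 higher by 2-fold or more (background 17.9% and 15.3%), with a median of -0.93, which scaling on spike-ins turned to 1.32, again below that shift. Collagens had 18 of 38 lower and 0 higher (median -0.85). The beaded-filament collagen genes Col6a1 (3337 and 19905, 5.96-fold) and Col6a3 (2.38-fold) were lower, as were Col18a1 of basement membranes (2021 and 18503, 9.15-fold), Col5a2 (3.700-fold) and Col10a1 of growth plate cartilage (13.1-fold). The main fibrillar genes differed little, with Col1a1 at 100811 and 98419 (0.03, other probes down to -1.57) and Col1a2 at 212549 and 243685 (-0.20, probes up to 2.18). Col3a1 was 2.07-fold lower.

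Proteoglycan, elastic fibre and matricellular genes had 30 of 49 lower and 1 higher (median -1.16), and 13 at least 5-fold lower. Comp, of cartilage and tendon, had 246 and 4424 (18.01-fold), Fmod (fibromodulin) 171 and 2629 (15.3-fold), Ecm1 9764 and 112944 (11.6-fold), Ltbp2 2196 and 30341 (13.8-fold) and Dcn (decorin) 5587 and 32171 (5.76-fold). Tnxb, tenascin X, was at least 16.99-fold lower and Ccn5 7.81-fold. Acan (aggrecan) was the member on the higher side, at 157 and 37.8 (4.15-fold). Fn1, fibronectin, was 5.35-fold lower at its bright probe, but its 4 probes ranged from -2.74 to 1.41.

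Matrix proteases and their inhibitors had 19 of 40 lower and 3 higher (median -0.90). Serpine2, an inhibitor of thrombin and urokinase, had 73.5 and 4254 (57.9-fold lower), Ctsk (cathepsin K) 689 and 6960.1 (10.1-fold), the collagenase gene Mmp13 90.3 and 1239 (13.7-fold) and Mmp2 2092 and 12129 (5.798-fold). The inhibitor genes Timp1, Timp2 and Timp3 were 2.37-fold, 3.58-fold and 3.65-fold lower. Adhesion receptors had 14 of 38 lower and 5 higher (median -0.57). Itgb4, the hemidesmosome integrin gene, had 178 and 2748 (15.4-fold lower), and Cd34 5.27-fold lower; Itgb3 (3.24-fold, probes from 0.22 to 1.69) and Itga4 (5.82-fold, probes from 0.75 to 2.54) were higher.

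Complement and innate defence genes had the lowest median of the lists outside the cell type markers, -1.50. Of 23 measured, 15 were lower by 2-fold or more and 1 was higher. C3, the central complement component, had 144 scaled units and 1318 (9.12-fold lower), Serping1, the C1 inhibitor gene, 127 and 2371 (18.6-fold) and the lysozyme gene Lyz2 122 and 2389.8 (19.7-fold, probes to -0.51). Cfp (properdin) was higher, at 719 and 155 (4.65-fold). Macrophages make several of these proteins. Of 22 macrophage markers, 8 were dim on both arrays, among them Mrc1, Itgam and Cd163. Of the 14 measured, 5 were lower and 2 higher by 2-fold or more (background 17.9% and 15.3%), and 8 were bounds. Fcgr3 was the highest (2.66-fold higher). The summed signal of the 14 was 743 scaled units in p53-null MEF and 3374 in MEF, of which Lyz2 gave 122 and 2389.8. The part of macrophages in these differences was not tested.

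Interferon and antigen presentation genes had 18 of 37 lower and 4 higher (median -0.97). Lower were genes of peptide processing and presentation: Tap2 8.06-fold, the immunoproteasome genes Psmb9 and Psmb8 6.92-fold and 4.76-fold, and the class I genes H2-D1 and H2-K1 3.56-fold and 3.48-fold, with H2-K1 at 3819 and 13287. Higher were some interferon-induced sensors and effectors, with Oasl1 at 341 and 42.7 (7.99-fold higher), Rsad2 (viperin) 3.74-fold (probes from 0.46) and Ifih1 3.17-fold higher (probes from 0.51), although Irf7 was 5.298-fold and Ifit3 3.52-fold lower. Chemokine and cytokine genes had 15 of 36 lower and 5 higher (median -0.64). Ccl8 had 18.1 and 705 (38.9-fold lower, ± 0.35 on the log2 scale), Il1rn, the interleukin 1 receptor antagonist gene, 481 and 3862 (8.03-fold) and Cxcl14 3031 and 13133 (4.33-fold), while Ccl5 was 5.995-fold higher beside Cxcl10.

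Growth factor families showed fewer differences. Of 19 genes of the insulin-like growth factor axis, 5 were lower and 2 higher (median -0.25, which ranged from -0.42 to 0.00 relative to all genes under other settings). Igfbp6 had 1539.6 and 15008 (9.75-fold lower), while the ligand gene Igf2 had 117896 and 139682 (-0.24). FGF, PDGF, EGF and VEGF families had 11 of 48 lower (22.9%) and 7 higher (14.6%), beside a background of 17.9% and 15.3%. Members included Fgf10 (7.61-fold lower), Vegfd (3069 and 19448, 6.34-fold lower) and Pdgfra (1371 and 5642, 4.12-fold lower), with Kdr 2.54-fold higher. TGF-beta and BMP pathway genes had 13 of 47 lower and 4 higher, with the activin gene Inhbb 7.56-fold and the BMP antagonist gene Grem1 3.41-fold lower, and Skil, a Smad repressor, 3.99-fold higher. Wnt pathway genes had 16 of 49 lower and 6 higher. The secreted antagonists Sfrp4 (95.6 and 3728, 38.98-fold), Sfrp1 (5.62-fold) and Frzb (2.87-fold) were lower and Wnt10b was higher (4.65-fold).

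Notch and Hedgehog genes had 4 of 24 lower (16.7%) and 3 higher (12.5%), below the background of 17.9% and 15.3%. Their median of 0.09 changed sign under 3 alternatives. Hhip, an inhibitor gene that Hedgehog signalling induces, had 1222 and 125 (9.77-fold higher). The receptor gene Ptch1, another such target, was 3.29-fold higher, and Gli1 was dim on both arrays. Whether Hedgehog signalling differed was not tested. Dlk1 had 6387 and 30558 (4.78-fold lower). Immediate early genes (4 of 33 higher, 1 lower) and Yap and Srf targets (4 of 36 higher, 5 lower) lay at or below the background shares. Myocd, the smooth muscle coactivator gene, had 452 and 31.3 (14.5-fold higher), with another probe at 0.67 (log2).

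Cholesterol and fatty acid synthesis genes had 8 of 32 higher and 1 lower (median 0.42), among them Idi1 (34265 and 5934, 5.77-fold) and the elongase gene Elovl6 (13462 and 3293, 4.09-fold). Hmgcs1 was 3.04-fold higher with probes from 0.00 to 3.85. Lipid storage genes had 8 of 20 lower and 0 higher, with lipoprotein lipase, Lpl, at 588 and 5809 (9.88-fold) and the adipogenic factor gene Cebpa at 87.8 and 677 (7.71-fold). Glycolysis and hypoxia genes had 6 of 31 lower (19.4%) and 2 higher (6.45%), beside a background of 17.9% and 15.3%. In the serine and Atf4 list, 5 of 33 were higher and 4 lower, at or below the background. The hydroxymethyltransferase gene Shmt1 was 6.24-fold (probes from 1.03 to 2.64) and the cystine carrier gene Slc7a11 4.51-fold higher. Antioxidant and detoxification genes had 17 of 39 lower and 2 higher (median -0.66). Gpx3 had 73.8 and 1148 (15.6-fold lower), Nqo1 2581 and 10879 (4.22-fold) and Hmox1 6744 and 28077 (4.16-fold), whereas Gsr, glutathione reductase, was 2.79-fold higher and Txn1, thioredoxin, 2.597-fold.

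Lysosome and autophagy genes had 20 of 42 lower and 0 higher (median -0.95). Ctsf (cathepsin F) had 216 and 2880.3 (13.3-fold), Ctsd 29488 and 126875 (4.303-fold) and Psap, the sphingolipid activator gene, 4244 and 19167 (4.52-fold). The differences were moderate and shared: 1 member passed 5-fold. RNA processing genes had 22 of 37 higher and 0 lower (median 1.18), with the splicing factor genes Srsf1 (3.19-fold, probes from 0.34 to 1.68) and Srsf7 (22834 and 7082, 3.22-fold) and Hnrnpa3 (144110.0 and 39599, 3.64-fold). Ribosome biogenesis genes had 11 of 29 higher and 1 lower (median 0.73), with Nop58 at 28809 and 3583 (8.04-fold) and Npm1 at 111131 and 38959 (2.85-fold). By contrast, 0 of 43 cytosolic ribosomal protein genes passed 2-fold in either direction (median 0.18), and mitochondrial respiration genes had 4 of 39 higher and 0 lower (median 0.27). Folding and heat shock genes had 6 of 29 higher and 2 lower, with mitochondrial Hspd1 at 2.46-fold. Clock genes had 5 of 18 lower and 2 higher.

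**Figure D4:**
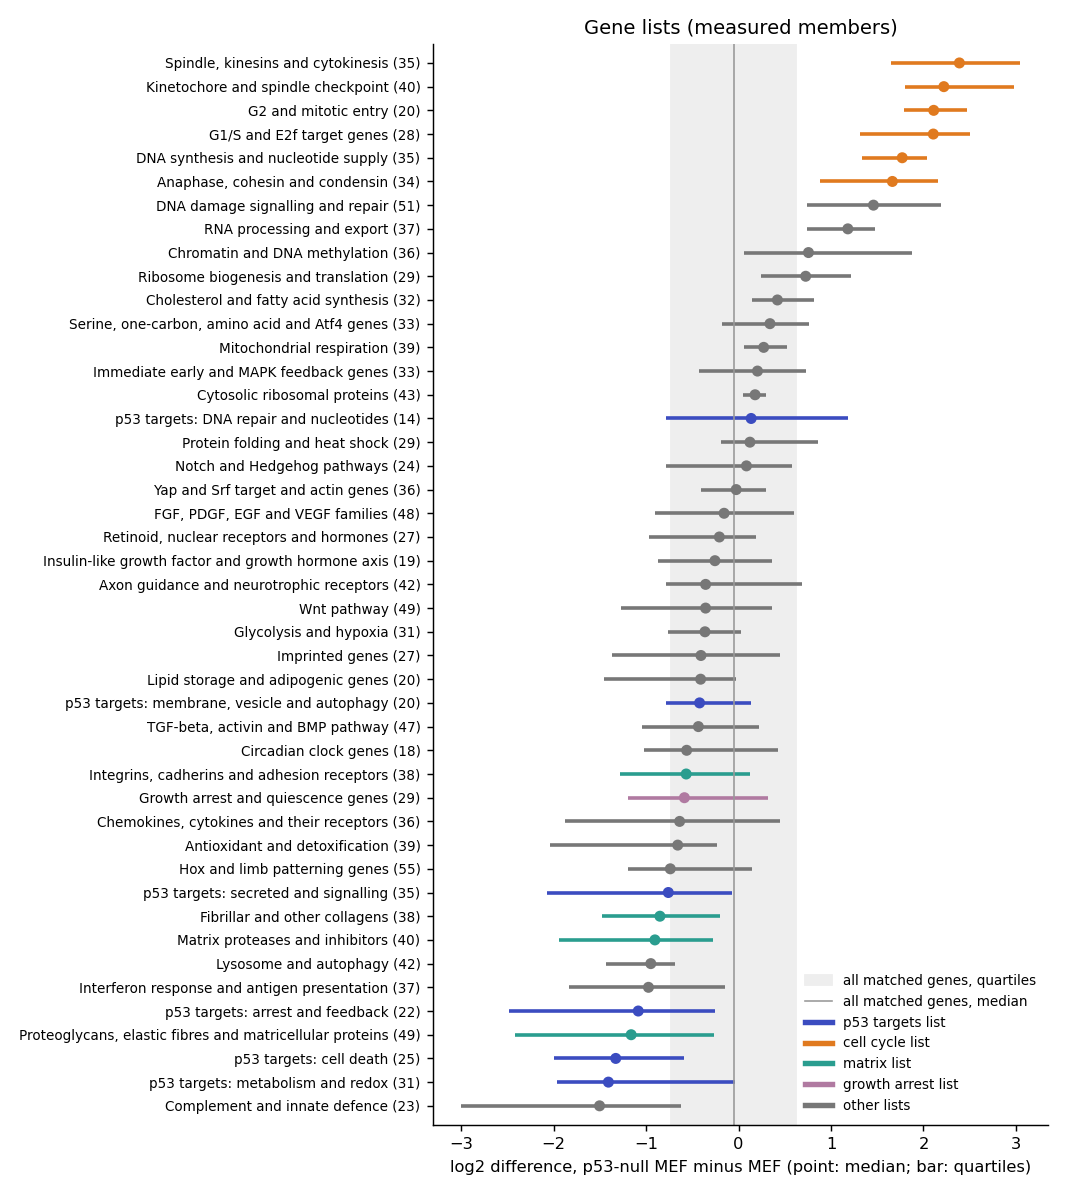
Median (point) and quartiles (bar) of the log2 difference, p53-null MEF minus MEF, for each gene list, with the number of measured members in brackets; the grey band and line are the quartiles and median of all matched genes. Spindle genes lie at 2.39 and complement genes at -1.50; spike-in scaling would move the median of all labels up by 2.26 and leave the medians of the complement, p53 target and matrix lists positive.

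Of 55 measured Hox and limb genes, 19 were lower and 4 higher (median -0.74). Split by paralogue number, a grouping chosen after the values were seen, 13 of 23 measured Hox genes numbered 1 to 9 were lower and 0 higher (median -1.03), and of 8 numbered 10 to 13, 0 were lower and 3 higher (median 0.84). Among the lower were Hoxb4 (25.7 and 153, 5.93-fold), Hoxc6 (803 and 3567, 4.44-fold), Hoxb7 (987 and 3723, 3.77-fold) and Hoxc8 (at least 12.8-fold). The higher genes included Hoxd13 (14660.4 and 3663, 4.002-fold, probes from 0.46 to 2.0), Hoxa11 (8435 and 3899.7, 2.16-fold) and Hoxb13 (4.75-fold, from 17.5 in MEF, near background). Axon guidance genes had 8 of 42 lower and 6 higher, near the background of 17.9% and 15.3%. Among nuclear receptor and retinoid genes (7 of 27 lower, 2 higher), Rbp4, the retinol carrier gene, had 6183 and 927 (6.67-fold higher), and Rarb, a retinoic acid receptor gene, 1904 and 86.9 (21.9-fold higher, with another probe at 0.61). Imprinted genes had 10 of 27 lower and 5 higher, with H19 at 30583 and 146944 (4.805-fold lower) and Phlda2 at 624 and 69.3 (8.997-fold higher).

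Markers checked the labelled cell type. All 14 fibroblast markers were measured, and Vim had 128254 and 113099 scaled units, Thy1 34164 and 49213 and Prrx1 12725 and 16374, so both arrays carried fibroblast RNA. Of the 14, 5 were at least 2-fold lower (35.7%, background 17.9%) and 0 higher, with Dcn the lowest (5.76-fold). In p53-null MEF 1 of the 14 did not clear background. Glial and neural crest markers had 7 of 13 lower and 3 higher, with Sox10 (at least 13.9-fold), S100b (529.8 and 4422, 8.35-fold) and Ngfr (61.7-fold, probes to -0.42) lower and Gap43 higher (3.16-fold). Of the 13, 6 lay above 0. Their median of -1.65 became 0.12, relative to all labels, when members had to be well above background on both arrays. Their summed signal was 9006 in p53-null MEF and 20405 in MEF. Bone and cartilage markers had 10 of 20 lower and 2 higher, and endothelial markers 2 of 11 lower and 5 higher, with Cdh5 and Pecam1 dim on both arrays. Skeletal muscle markers had 2 of 12 lower and 6 higher, with Myod1 dim on both and Myog at 120.2 and 32.1. The summed signal of the muscle markers went the other way, at 14032 in p53-null MEF and 24807 in MEF. Their median of 1.01 fell to 0.22, relative to all labels, with no filter on dim probes. Epithelial markers had 7 of 16 lower and 3 higher (Krt14 25.8 and 502, 19.4-fold lower; Cdh1 dim on both), neuronal markers 3 of 11 each way and smooth muscle markers 4 of 14 lower and 2 higher. Blood and pluripotency markers were mostly dim, with 12 of 17 and 8 of 14 below background on both arrays. In bulk RNA, fewer cells of a type and less RNA per cell cannot be told apart, and the part of such cells in the differences above was not tested.

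The embryos behind the arrays also differed in sex-linked RNA. Xist, which coats the inactive X chromosome of female cells, had 7152 scaled units in p53-null MEF and did not clear background in MEF. From the Y chromosome, Eif2s3y, Ddx3y and Kdm5d had 1492, 635 and 296 in MEF and did not clear background in p53-null MEF, which makes them at least 96.9-fold, 41.2-fold and 19.2-fold lower. Genotype and this difference cannot be told apart. The 506 measured X-linked genes had a median log2 difference of 0.21, with 24.1% higher and 12.5% lower by 2-fold or more, and were the chromosome with the highest median. Autosomal medians ranged from -0.21 on chromosome 7 to 0.12 on chromosome 13. With the trend with probe composition described next removed, the X median was 0.12 and that of chromosome 13 was 0.00.

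Differences also moved with the base composition of the probes. Probes of matched genes with at most 30% G and C bases had a median of 0.35 (log2), those with 40% to 45% a median of 0.01, and those above 60% a median of -0.97. Median probe content was 41.7% for cell cycle genes, 43.3% for p53 targets and 43.3% for matrix and for all matched genes. With the trend removed the medians of these 3 pooled lists were 1.89, -0.79 and -0.92. Some single lists moved more. RNA processing genes went from 1.18 to 0.91 and cell death targets from -1.33 to -1.01. Proteoglycan and matricellular genes went from -1.16 to -1.44 and interferon genes from -0.97 to -1.26. The part of probe composition in the differences was not tested. Labels with no RefSeq match leaned to the higher side. Of 1437 such labels designed on accessions starting AK (mouse cDNA clones), 196 were at least 5-fold higher and 11 lower, with a median of 0.93 and a median probe content of 35% G and C. Of 1667 other unmatched labels, 64 were higher and 24 lower (median 0.11). Among probes with 30% to 35% G and C, unmatched ones had a median of 0.88 and matched ones 0.28. At 35% to 40% the medians were 0.66 and 0.17. The cause of this lean was not tested.

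**Figure D5:**
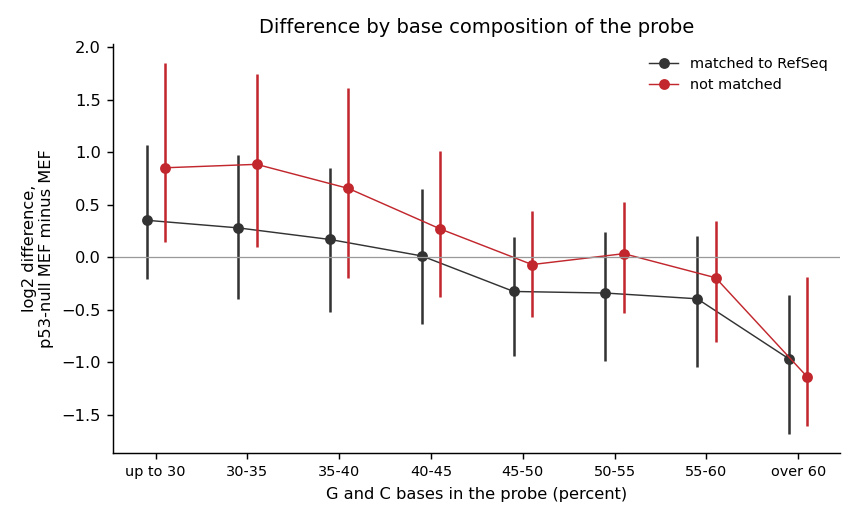
Median (point) and quartiles (bar) of the log2 difference, p53-null MEF minus MEF, of probes measured on both arrays, by the percent of G and C bases in the probe, for labels matched to RefSeq and not matched. Matched medians run from 0.35 to -0.97 across the classes; scaling on spike-ins would move all of them up by 2.26.

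Of 6265 matched genes with several usable probes, 135 held 1 probe up and another down, each by 2-fold or more. The 10 widest were Zfp945, Gsap, Fcgbp, D5Ertd579e, Cd55, Ppip5k1, Paip1, Edil3, Gnas and Pvr. For Paip1, a translation factor gene, the brightest probe had 393 and 2939 scaled units (7.48-fold lower) and another 1652 and 450.1 (3.67-fold higher), both far above background. Ppip5k1 had 357 and 1220.2 at its bright probe (3.42-fold lower) and 608 and 66.9 at another (9.09-fold higher). Gnas, the imprinted gene of a G protein subunit, had 9238 and 29401 (3.18-fold lower) and 316 and 44.7 (7.05-fold higher). No single direction can be given for such genes. Among the genes named above with a 2-fold difference, a further probe fell short of 2-fold for Aldh4a1, Brca1, E2f8, Rbl2, Slc7a11, Tigar and Tnfrsf10b.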

How the data were processed

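RNA of p53-null MEF and of MEF was hybridised in 1 colour (Cy3) to Agilent 4x44K mouse arrays, 1 array per group. The intensity values are those deposited by the authors: the processed signal that, per the file headers, came from Feature Extraction 9.5.3.1 and is background-corrected but not scaled between arrays. A deposited table of processed values held the same linear, uncentred signals within a ratio of 0.995 to 1.005 (medians 51.8 for p53-null MEF and 43.2 for MEF) and was not used further. Control spots and outlier flags (62 and 192 spots) were left out, spots of a probe were averaged, and log2 signals were set against each array's 75th percentile.

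A gene was represented by its brightest probe over the 3 arrays of the series. A probe well above background on 1 array only gave a bound against the higher of its own signal and the lowest signal well above background on the dim array (15.4 and 14.9 scaled units). Gene names came from accession (24496 probes), symbol (6234) or synonym (2386) in the RefSeq table of GRCm38.p6, and otherwise from the design file (8058). Probe positions are those of the design file, mm8. Promoter sequences are RefSeq's. The genes named singly were taken from the 30 largest measured differences and 12 largest bounds in each direction among matched genes whose probes differed the same way, plus list members and the 10 genes with the widest disagreement between probes. The members and gene lists were chosen with earlier results of these data known. No test was run, since each group is 1 array. The scripts used R 4.3.3 with limma 3.58.1, and Python 3.11.15 with numpy 2.4.6, pandas 2.3.3 and matplotlib 3.10.9, and recovered planted differences when tested on simulated data. Alternatives covered the background correction, the scaling, the filter on dim probes, the choice of probe and, chosen after seeing the data, removal of the probe composition trend. Some genes that these rules select are not reported here, in the text or by name in the figures; they stay in the counts and medians.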

Additional observations from a re-analysis of the deposited data

How the results depend on the processing

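Scaling and background correction changed the counts most. The 582 labels at least 5-fold higher became 961 with no scaling, 8513 with spike-in scaling, 198 and 201 with normexp background correction (75th percentile or quantile scaling) and 1032 with no filter on dim probes. The 530 at least 5-fold lower became 47 with spike-in scaling, 243 and 245 with normexp and 1033 with no filter. The cell cycle median of 1.98 was 2.31 with no scaling and 4.25 with spike-ins. That of p53 targets (-0.80) was -0.47 and 1.41, and that of matrix genes (-0.93) was -0.61 and 1.32, so both changed sign with spike-in scaling, which raised the median of all labels by 2.26. Without allowing for that shift, 47 of 131 named genes measured as at least 2-fold lower turned positive with spike-ins and 0 with no scaling. The other alternatives moved these 3 medians by less than the spread used for comparison and the counts by less than 1.5 times. Set against the median of all labels under each of 13 alternatives, 3366 of 4024 values for 312 named genes moved by less than their error SD and 655 by more. Of those at least 2-fold apart, 3 reversed, all with the mean of a gene's probes: D5Ertd579e (-0.037), Gnas (0.051) and Ppip5k1 (0.030). The cause of these changes was not tested. Signals near background are bounds only, and 1 array a group leaves the spread between cultures unknown. No paired analysis was possible because each group is 1 array with no replicate number shared.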
